A study of Mus musculus with 6 samples.

Results

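The genes described here encode the constitutive 26S proteasome and the proteins that cap or assemble it. They were taken by symbol, as rows of the deposited table named Psma, Psmb, Psmc, Psmd, Psme, Psmf or Psmg with a number, and 47 of the 24421 genes in the table were kept. The 3 interferon-induced catalytic subunits Psmb8, Psmb9 and Psmb10 were left out. The rule also named pseudogene symbols and genes at 0 in all 6 libraries, and 0 matching rows were of either kind. RNA came from cortical cells of CD51-Flp mice, which had received AAV-GFAP-FSF-hM3D-mCherry after birth. After Flp recombination, driven by the CD51 (integrin alpha V) allele, the GFAP promoter of this virus expresses mCherry and hM3D, a Gq-coupled designer receptor, and the labels call the sorted cells astrocytes. The CNO group had 3 libraries (replicates 1, 2 and 3) from mice given clozapine-N-oxide, the receptor's ligand, with 2 injections a day between postnatal days 7 and 21, and the saline group had 3 libraries (replicates 3, 4 and 5) from mice given saline on the same days. All mice carried the Flp allele and the virus, all cells were sorted as mCherry-positive on day 21, and without a CNO group that lacked the receptor an effect of the ligand alone and one through the receptor cannot be told apart. The labels do not say whether a library came from 1 animal or a pool, so p-values measure the spread between libraries only.

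The proteasome is the main protease for intracellular proteins tagged with ubiquitin. Its 20S core is a barrel of outer alpha rings, which gate the entrance, and inner beta rings, in which Psmb5, Psmb6 and Psmb7 carry the chymotrypsin-like, caspase-like and trypsin-like activities. The 19S regulatory particle binds the core through a ring of ATPases, encoded by the Psmc genes, that unfold substrates, while Psmd genes encode its receptors, its deubiquitinase and its lid. Other caps (Psme genes) open the core without ubiquitin, and the Psmg genes encode chaperones of core assembly. Subunits of the complex are needed in fixed proportions, and Nfe2l1, a transcription factor that binds antioxidant response elements, is known to induce them together when proteasome activity is short. Most of these genes are expressed in all cell types, while Psma8, Psmb11 and Psmc3ip are known from germ cells or thymus.

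Promoters are shown for the catalytic subunits Psmb5 and Psmb6, because both hold the core of that element, TGACNNNGC, in the 250 bases before the annotated start. Psmb5 lies on chromosome 14, 54614119 to 54618022 (minus strand) and Psmb6 on chromosome 11, 70525367 to 70527858 (plus strand), both in GENCODE release M21 on GRCm38. Each sequence is from RefSeq on GRCm38.p6, written 5′ to 3′ on the gene's strand, with the element in capitals. The Psmb5 stretch is chr14:54617996-54618245 on the minus strand and the Psmb6 stretch is chr11:70525107-70525356 on the plus strand. The annotated start used here is that of RefSeq, which differs from the GENCODE start for both genes. The Psmb5 stretch reaches into the GENCODE gene, and the Psmb6 stretch ends short of the GENCODE start.
Psmb5: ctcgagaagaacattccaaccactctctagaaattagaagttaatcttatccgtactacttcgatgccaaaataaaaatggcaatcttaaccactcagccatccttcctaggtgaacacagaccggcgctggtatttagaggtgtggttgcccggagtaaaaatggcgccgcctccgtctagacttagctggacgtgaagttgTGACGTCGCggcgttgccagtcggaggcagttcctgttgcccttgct
Psmb6: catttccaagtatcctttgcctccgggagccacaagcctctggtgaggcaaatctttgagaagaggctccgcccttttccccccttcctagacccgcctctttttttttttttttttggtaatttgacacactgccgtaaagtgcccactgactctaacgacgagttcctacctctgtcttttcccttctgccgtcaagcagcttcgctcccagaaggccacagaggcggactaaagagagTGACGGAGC
The element read TGACGTCGC in Psmb5, from position -47, and TGACGGAGC in Psmb6, from position -9, counted back from the start. Promoters were on hand for 39 of the 47 genes. Searched on both strands, 5 of the 39 (12.8%) held TGACNNNGC, namely Psmb5, Psmb6, Psmc6, Psmd9 and Psmd12, against 11.5% of 27025 genes with a promoter in the same table. CCAAT, the motif of the factor NF-Y, stood in 14 of the 39 (35.9%), against 37.5% of all genes. Both shares lay near those of all genes, and a match is a description of the letters and not of binding.

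Recovered totals were 3908076, 19224186 and 17102657 reads in CNO 1, 2 and 3 and 12010901 to 19052161 in saline, so CNO 1 was the shallowest library. With or without CNO 1, 0 proteasome genes were called, so the calls cannot show its weight. Leaving it out moved their median log2 fold change (CNO over saline) from -0.47 to -0.09, and the number above 0 from 12 to 20. The cells of the sort were checked by marker lists. All 10 astrocyte markers were detected in each library and took 1.06 to 3.14% of reads in CNO and 1.88 to 2.71% in saline. The 10 oligodendrocyte markers took 11.1 to 24.5% of reads in CNO and 5.32 to 7.81% in saline, without overlap, with 9, 10 and 10 of them detected in CNO 1, 2 and 3 and 10 in each saline library. The 10 microglia and macrophage markers took 0.593 to 1.24% of reads in CNO and 1.07 to 1.37% in saline. Neuronal markers (8 genes) took 0.0117 to 0.0229% of reads in CNO and 0.0157 to 0.0302% in saline, and endothelial markers (5 genes) 0.00113 to 0.0309% of reads in CNO and 0.00392 to 0.00905% in saline, highest in CNO 3. CNO 1 had reads for 9 of the 10 microglia and macrophage markers, 3 of the 8 neuronal and 3 of the 5 endothelial ones, and 0 markers of any list were at 0 in all 3 CNO libraries. The part of these differences in the values of the proteasome genes was not tested, and in such bulk samples fewer cells of a type and less RNA per cell cannot be told apart.

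No proteasome gene passed the test between CNO and saline. The test was limma on log2 of the normalized count plus 1, over the 13028 genes that averaged at least 10, with p-values adjusted over all of them, and 44 of the 47 genes met the filter. Of these, 0 were called higher or lower at an adjusted p under 0.05, beside 0.0154% of all tested genes, and the smallest adjusted p was 0.50. At an unadjusted p under 0.05, 2 of the 44 were lower in CNO, where 7.25% of all tested genes were, and 0 were higher, where 2.28% were. On recovered reads, edgeR with the same filter called 0 of the 44, beside 0.0% of all tested genes. DESeq2 called 0 of the 40 to which it gave an adjusted p, beside 2.15% of the 11256 genes with one, and gave none for Psmc3ip, Psmc5, Psmd9 and Psmg4. At an unadjusted p under 0.05 edgeR had 3 of the 44 beside 9.33% of all, and DESeq2 had 1 of 41 beside 12.8%. The groups did not overlap for 2 of the 44, Psmc6 and Psmd5, with all CNO libraries below all saline libraries in both, beside 12.5% of all tested genes in that direction. Log2 fold changes (CNO over saline) were above 0 for 12 genes and below 0 for 32, beside 4135 above and 8893 below of the 13028 tested genes. The median over the proteasome genes was -0.47, while that over all tested genes was -0.89, a difference of 0.41. That difference was lost without CNO replicate 3, where the medians were -0.85 over the proteasome genes and -0.82 over all tested genes. With all 6 libraries it was 0.12 over genes averaging at least 50, 0.145 with a pseudocount of 8 and 0.07 with quantile scaling. It was largest, at 0.57, without CNO replicate 2. Over genes detected in all 6 libraries the order turned, with medians of -0.34 over 30 proteasome genes and -0.09 over 7395 genes. The sign of the median turned in edgeR (0.19) and DESeq2 (0.27), which compare mean counts rather than mean logs. A mean of at least 10 keeps genes that are high in either group, and the 95% intervals had a median width of 6.10 log2 units, so changes of several fold in either direction are not told apart from none.

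**Figure D1:**
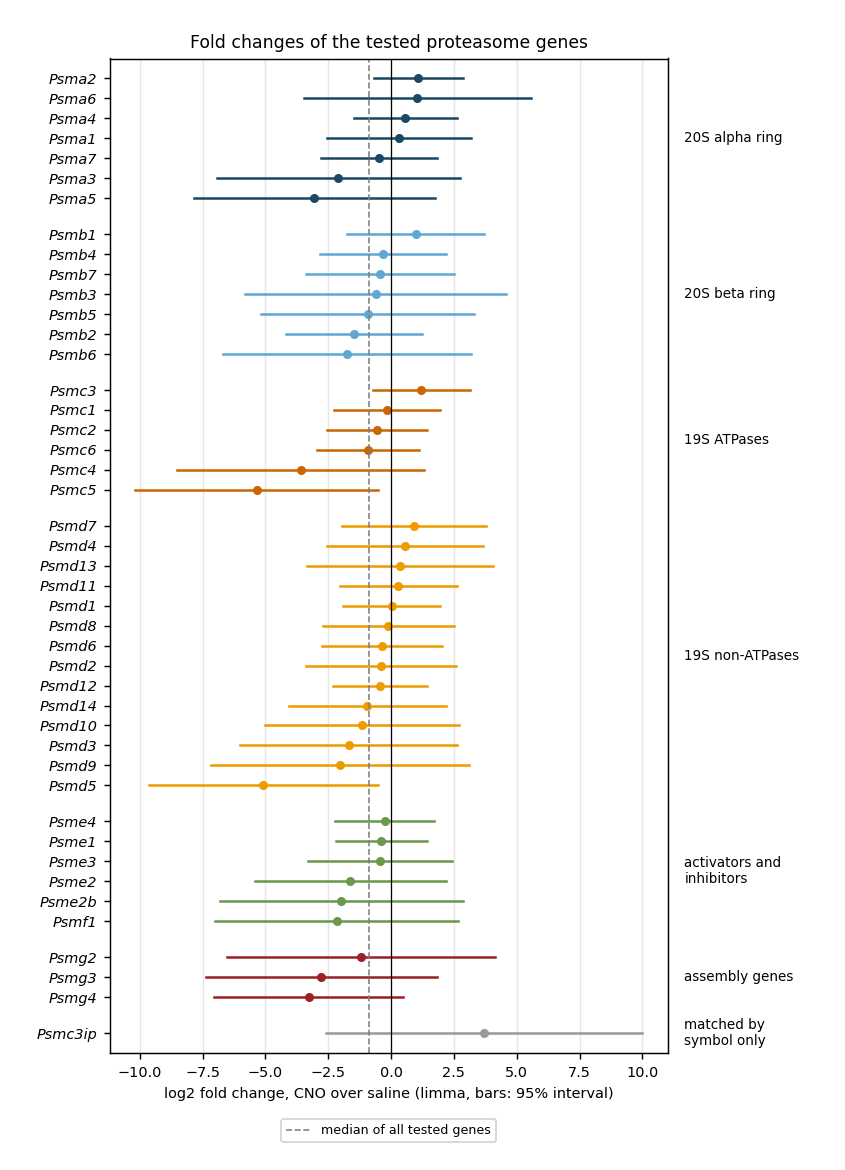
Log2 fold change (x axis, CNO over saline, limma) of each tested proteasome gene (rows, grouped by role), with points for the estimate and bars for the 95% interval. The intervals of Psmc5 and Psmd5 lie below 0, those of the other 42 genes include 0, and the dashed line marks the median of all tested genes at -0.89.

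Summed over the 47 genes, proteasome transcripts made up 0.116, 0.108 and 0.142% of all reads in CNO 1, 2 and 3, against 0.122, 0.140 and 0.153% in saline 3, 4 and 5. Values by library follow these replicate numbers throughout. The ranges overlapped, and the mean was 0.122% ± 0.0175 in CNO and 0.139% ± 0.0155 in saline (SD, n = 3 each). Counting error was small beside this, since exact 95% binomial intervals ran at most from 0.113% to 0.120% in CNO 1, the shallowest library. The sum of normalized counts put the groups in the other order, 19182, 15358 and 23480.3 in CNO against 12053, 13499 and 14687 in saline, without overlap, and the normalized columns themselves sum to 14223762 to 16591952 in CNO and 9588485 to 9857830 in saline. The direction of the total therefore depends on the scale. Without Psmc3ip, whose product is not a proteasome subunit, the share was 0.0992, 0.108 and 0.142% in CNO and 0.122, 0.140 and 0.153% in saline.

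**Figure D2:**
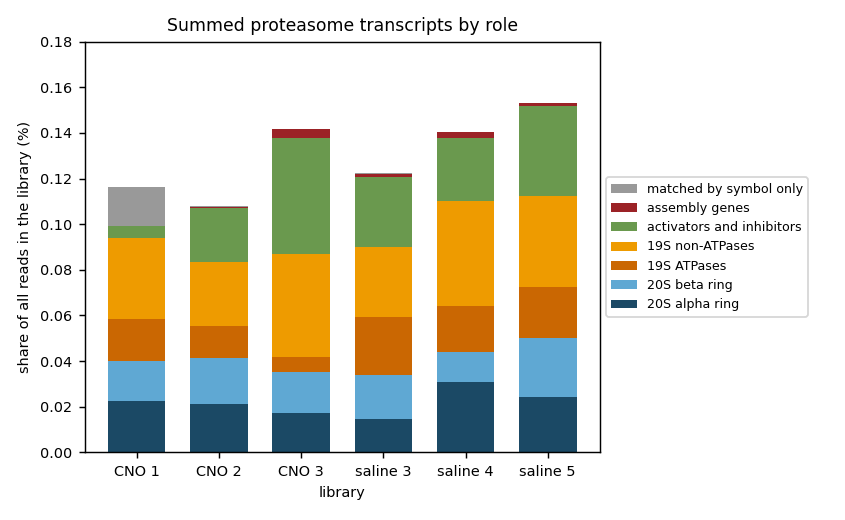
Share of all reads (y axis, percent) taken by the proteasome genes in each library (x axis), stacked by role. The bars reach 0.108% to 0.142% in CNO and 0.122% to 0.153% in saline, and the ATPase layer is thinnest and the layer of activators and inhibitors thickest in CNO 3.

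The make-up of that sum differed more between CNO libraries than the sum itself. The 19S ATPases took 15.8, 12.9 and 4.85% in CNO and 20.7, 14.2 and 14.6% in saline of the proteasome reads. Activators and inhibitors took 4.41, 22.0 and 36.0% in CNO and 25.4, 19.7 and 25.8% in saline. CNO 3 was lowest for the ATPases and highest for the activators, and CNO 1 was lowest for the activators. The alpha ring took 19.6, 19.6 and 12.1% in CNO and 11.9, 21.9 and 15.9% in saline, and the beta ring 15.0, 18.8 and 12.8% in CNO and 15.8, 9.38 and 16.8% in saline. The 19S non-ATPases took 30.6, 25.8 and 31.7% in CNO and 25.1, 32.9 and 26.0% in saline. The gene with the most reads was Psmc3ip in CNO 1 (14.6% of proteasome reads), Psmd1 in CNO 2 (8.26%) and Psme4 in CNO 3 (26.2%), against Psme4 in all 3 saline libraries (12.5%, 10.3% and 10.7%).

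**Figure D3:**
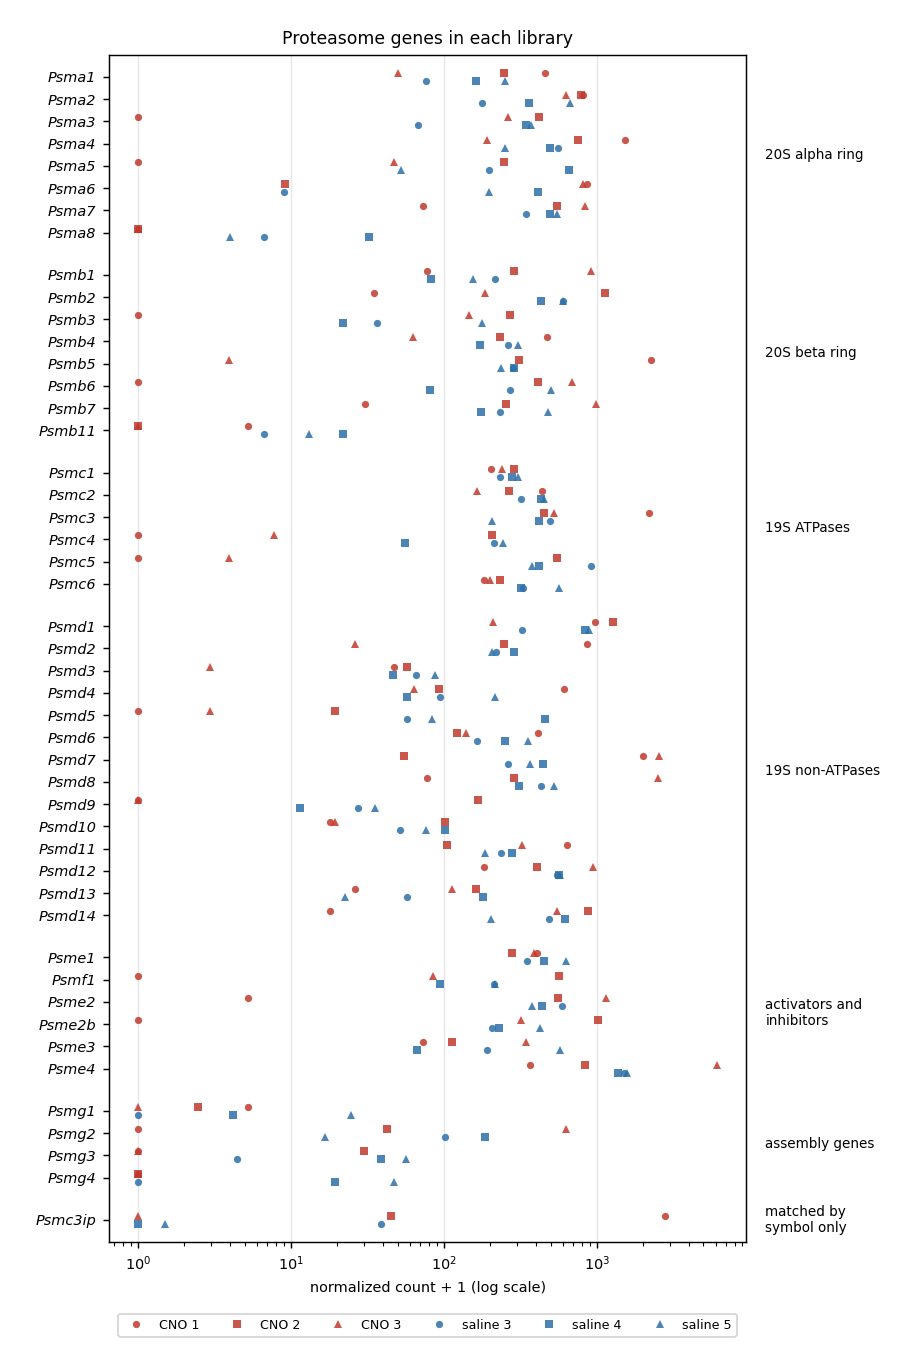
Normalized count plus 1 (x axis, log scale) of each of the 47 genes (rows, grouped by role) in the CNO libraries (red) and the saline libraries (blue), 1 marker per library. For 25 of the 47 genes red markers lie on both sides of all 3 blue ones, which for some of these genes are far apart themselves. Points at 1 on the axis are libraries with 0 reads.

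The alpha ring was present in both groups, with Psma8, the testis form of an alpha subunit, as the exception. Levels are normalized counts. Psma4 had 1542, 752 and 192 in CNO, against 554, 496 and 251 in saline (log2 fold change 0.56 ± 0.93 SE, limma adjusted p = 0.821). Psma2 stood at 811, 789 and 631 in CNO, against 178, 363 and 666 in saline, and it was the one alpha gene whose 3 CNO libraries lay close together and near or above the top saline library (log2 fold change 1.07 ± 0.81 SE, limma adjusted p = 0.651). Psma5 had 0, 248 and 46.6 in CNO, against 198, 663 and 51.8 in saline (log2 fold change -3.07 ± 2.19 SE, limma adjusted p = 0.639), so that both groups spread widely and overlapped. Psma3 had 0, 417 and 261 in CNO, against 66.3, 342 and 369 in saline. Its CNO 1 library held 0 reads, where the saline mean would amount to 61.3 reads at that depth. Psma6 had 866, 8.14 and 819 in CNO, against 7.94, 415 and 198 in saline, low in CNO 2 and equally low in saline 3. Psma1 had 461, 248 and 49.5 in CNO, against 75.4, 161 and 249 in saline, and Psma7 had 71.8, 550.5 and 836 in CNO, against 344, 491 and 549 in saline, with overlap in both. Psma8 had 0 reads in the 3 CNO libraries, against 5.67, 31.2 and 3.02 in saline. With the floor of 3 reads per library, which averages 5.94 normalized counts over CNO, it was at least 2.24-fold lower. Saline 4 alone carried this bound, since without it the saline mean of 4.34 lay under the floor, and the gene was below the level filter and so not tested. Fold changes of the 7 tested alpha genes were above 0 for 4 and below 0 for 3, beside 4135 above and 8893 below of all 13028 tested genes.

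In the beta ring, the catalytic genes spread over a wider range in CNO than in saline. Psmb5 (chymotrypsin-like site) stood at 2261, 311 and 2.91 in CNO, against 282, 287 and 237 in saline. The saline libraries agreed to within 1.21-fold. CNO 1 lay far above them, and CNO 3 held 3 reads where 276 would match the saline mean. The fold change of Psmb5 was -0.93 ± 1.93 (SE, 95% interval -5.16 to 3.29, limma adjusted p = 0.860), below 0 although the mean was 858 ± 1224 in CNO and 268 ± 27.6 in saline (SD, n = 3 each), and it was above 0 (1.65) without CNO replicate 3. Psmb6 (caspase-like site) stood at 0, 409.9 and 686 in CNO, against 271, 80.0 and 498 in saline (log2 fold change -1.76 ± 2.25 SE, limma adjusted p = 0.767). Psmb7 (trypsin-like site) stood at 29.6, 253 and 989.5 in CNO, against 232, 175 and 483 in saline (log2 fold change -0.46 ± 1.34 SE, limma adjusted p = 0.905). CNO 1 was thus high for Psmb5 and at or near the bottom for Psmb6 and Psmb7, and CNO 3 the reverse, so the order of the CNO libraries was not shared by the catalytic genes. Without CNO replicate 1, Psmb6 (1.26) and Psmb7 (0.89) were above 0. Of the structural beta genes, Psmb2 had 33.8, 1129 and 185 in CNO, against 602, 431 and 603 in saline (log2 fold change -1.48 ± 1.23 SE, limma adjusted p = 0.667). Psmb1 had 76.1, 289 and 924 in CNO, against 214, 80.8 and 155 in saline (log2 fold change 0.97 ± 1.24 SE, limma adjusted p = 0.767). Both had a CNO library on either side of the saline range. Psmb3 had 0, 269 and 145 in CNO, against 35.7, 20.8 and 176 in saline, and Psmb4 had 473, 232 and 62.1 in CNO, against 260.2, 170.5 and 306 in saline. Psmb11, the thymus form of the Psmb5 subunit, had 4.23, 0 and 0 in CNO, against 5.67, 20.8 and 12.1 in saline, with at most 1 read in a CNO library, below the level filter. Of the 7 tested beta genes, 6 had fold changes below 0 by mean logs, and 6 had a higher arithmetic mean in CNO. Of all 13028 tested genes, 8893 and 6510 did so.

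Of the 19S ATPases, Psmc1, Psmc2 and Psmc6 were detected in every library without large gaps, Psmc4 and Psmc5 had few or no reads in CNO 1 and CNO 3, and Psmc3 was high in CNO 1. Psmc1 had 203, 289 and 241 in CNO, against 232, 277 and 304 in saline, the smallest overall range of the ATPases. Psmc2 had 435, 266 and 163 in CNO, against 317, 429.8 and 451 in saline. Psmc6 had 182, 234 and 201 in CNO, against 327, 319 and 564 in saline, with all CNO libraries below the lowest saline library, with means of 205 ± 26.4 in CNO and 403 ± 139 in saline (SD, n = 3 each), and it did not pass (limma adjusted p = 0.714). Psmc5 had 0, 546 and 2.91 in CNO, against 915, 419 and 374 in saline. It had 0 reads in CNO 1 and 3 reads in CNO 3, where the saline mean would amount to 135 and 587 reads, while CNO 2 lay inside the saline range. Its fold change of -5.35 ± 2.21 (SE, 95% interval -10.18 to -0.51, limma adjusted p = 0.50) was the lowest of the tested proteasome genes, with adjusted p from 0.150 to 0.910 over the alternatives that gave one. Psmc4 showed the same libraries low, with 0, 206 and 6.79 in CNO, against 212, 54.4 and 243 in saline (log2 fold change -3.60 ± 2.24 SE, limma adjusted p = 0.603). Psmc3 went the other way, with 2210.2, 448 and 525 in CNO, against 496, 421 and 206 in saline (log2 fold change 1.2 ± 0.88 SE, limma adjusted p = 0.645). CNO 1 held several times the level of any other library for Psmc3. Reads at Psmc3 cannot be told apart from those of the overlapping antisense gene Slc39a13 where counting ignored strand. Of the 6 ATPases, 5 had a lower arithmetic mean in CNO, with a median ratio of means of 0.615 (CNO over saline), beside 0.999 over all tested genes.

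Among the non-ATPase genes of the 19S particle, the scaffold and receptor genes of the base were Psmd1, Psmd2 and Psmd4. Psmd1 had 976, 1269 and 209.6 in CNO, against 325, 842 and 887 in saline. Psmd2 had 862, 245 and 25.2 in CNO, against 218, 286 and 204 in saline, and Psmd4, a ubiquitin receptor, had 613, 91.7 and 63.1 in CNO, against 93.0, 56.0 and 216 in saline. CNO 1 lay above all saline libraries for each of these, and CNO 3 lay below the lowest saline library for Psmd1 and Psmd2 only. The lid has 8 genes here. Psmd7, the partner of the deubiquitinase in the lid, had 2012, 54.0 and 2552 in CNO, against 263, 442 and 364 in saline (log2 fold change 0.91 ± 1.31 SE, limma adjusted p = 0.791). CNO 1 and CNO 3 lay above and CNO 2 below all saline libraries, and the fold change was -0.07 without CNO replicate 3. Psmd14, the deubiquitinase itself, had 16.9, 877 and 545 in CNO, against 486, 624 and 202 in saline, with 4 reads in CNO 1. Psmd8 had 76.1, 289 and 2504 in CNO, against 431, 307 and 523 in saline, and Psmd12 had 182, 408 and 952 in CNO, against 553, 567 and 577 in saline. The saline values of Psmd12 agreed to within 1.04-fold, the closest of all 47 genes, against 5.24-fold in CNO. Psmd3 had 46.5, 56.2 and 1.94 in CNO, against 65.2, 45.6 and 87.1 in saline, with 2 reads in CNO 3. Psmd6 had 409.9, 121 and 138 in CNO, against 163, 249 and 354 in saline, and Psmd11 had 638, 104 and 323 in CNO, against 235, 278 and 184 in saline. Psmd13 had 25.4, 162 and 112 in CNO, against 56.1, 179 and 21.6 in saline, which was as variable in saline as in CNO.

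The 3 chaperones that build the ATPase base, Psmd5, Psmd9 and Psmd10, all had fold changes below 0, with a median of -2.02. Of all 13028 tested genes, 8893 were below 0, with a median of -0.89 over all of them. Psmd5 had 0, 18.5 and 1.94 in CNO, against 56.7, 455 and 83.0 in saline, with all CNO libraries below the lowest saline library. The counts were 0, 25 and 2 reads in CNO, where the saline mean would amount to 47.0, 268 and 204 reads. Its fold change was -5.08 ± 2.08 (SE, 95% interval -9.65 to -0.51, limma adjusted p = 0.50), with an unadjusted limma p of 0.0323, and over the alternatives the adjusted p ran from 0.0906 in DESeq2 to 0.910, so that it passed under none of them. Saline 4 was several times above the other saline libraries for this gene, and the gene overlaps Cutal on the opposite strand. Psmd9 had 0, 166 and 0 in CNO, against 26.6, 10.4 and 34.2 in saline (log2 fold change -2.02 ± 2.34 SE, limma adjusted p = 0.746), with all its CNO reads in 1 library. The sign of Psmd9 turned to 1.22 in DESeq2. Psmd10 (gankyrin) had 16.9, 101 and 18.4 in CNO, against 50.5, 101 and 75.0 in saline, with 4 reads in CNO 1. No other 19S gene but Psmc6 had groups that did not overlap.

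Activators and inhibitors held the gene with the most reads in saline, Psme4, and an unresolved pair of copies. Psme4, the nuclear cap PA200, had 363, 844 and 6153 in CNO, against 1507, 1384 and 1568 in saline (log2 fold change -0.26 ± 0.89 SE, limma adjusted p = 0.919). The saline libraries lay within 1.13-fold, and CNO 1 and 2 lay below and CNO 3 above all of them, and the mean was 2453 ± 3213 in CNO and 1486 ± 93.8 in saline (SD, n = 3 each). Its sign was above 0 without CNO replicate 1 (0.62) and in DESeq2 (0.72). Psme1 and Psme2 encode the interferon-inducible PA28 cap. Psme1 had 406, 279 and 389 in CNO, against 347, 455 and 629 in saline, in a narrow range in both groups. Psme2 had 4.23, 557 and 1156 in CNO, against 596, 438 and 375 in saline (log2 fold change -1.62 ± 1.73 SE, limma adjusted p = 0.728), with a single read in CNO 1, where the saline mean would amount to 111 reads. Psme2b had 0, 1027 and 317 in CNO, against 206, 228 and 422 in saline. The transcripts of Psme2 and Psme2b were 99.4% identical over 794 aligned bases, so reads may have been split between them and both values are uncertain. The sum of the pair is near 0 in CNO 1 in either case. Psme3, the nuclear PA28 gamma cap, had 71.8, 112 and 342 in CNO, against 189.9, 65.6 and 573 in saline, as variable in saline as in CNO. Psmf1, the inhibitor PI31, had 0, 565 and 84.4 in CNO, against 212, 92.8 and 216 in saline (log2 fold change -2.16 ± 2.20 SE, limma adjusted p = 0.717). All 6 genes of the class had fold changes below 0, and 4 of them had a higher arithmetic mean in CNO. Of all 13028 tested genes, 8893 and 6510 did so.

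The genes for the chaperones of core assembly were uneven between libraries, and all 4 had 0 reads in at least 1 CNO library. Psmg2 had 0, 41.4 and 625 in CNO, against 101, 186 and 15.6 in saline (log2 fold change -1.19 ± 2.43 SE, limma adjusted p = 0.858). Psmg3 had 0, 28.9 and 0 in CNO, against 3.40, 37.6 and 55.4 in saline (log2 fold change -2.78 ± 2.09 SE, limma adjusted p = 0.651). Psmg4 had 0 reads in the 3 CNO libraries, against 0, 18.4 and 46.3 in saline, so that saline 3 was at 0 as well and the groups overlapped. Against the floor of 3 reads per library, Psmg4 was at least 3.63-fold lower in CNO by means, but at least 1.55-fold lower without saline 5. Its fitted fold change of -3.28 ± 1.71 (SE, 95% interval -7.04 to 0.48, limma adjusted p = 0.558) depends on the pseudocount. Psmg1 had 4.23, 1.48 and 0 in CNO, against 0, 3.20 and 23.7 in saline, at most 2 reads in a CNO library, and was not tested. Pomp, the maturation factor of the core and not in the set by symbol, had 1082, 433 and 682 in CNO, against 435, 595 and 550.1 in saline (log2 fold change 0.39 ± 0.74 SE, limma adjusted p = 0.847).

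Psmc3ip was chosen by its symbol only, since it encodes a partner protein of Psmc3 that acts in meiotic recombination. It had 2798, 44.4 and 0 in CNO, against 38.0, 0 and 0.503 in saline (log2 fold change 3.69 ± 2.87 SE, limma adjusted p = 0.659). CNO 1 alone held 662 reads of it, the most of any gene of the set in that library, while CNO 3 and saline 4 held 0. Reads at Psmc3ip cannot be told apart from those of Mlx, which overlaps it on the opposite strand, where counting ignored strand. Removing Psmc3ip leaves 43 tested genes and no call.

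The feature the proteasome genes shared was the distance between the CNO libraries. The SD of log2(normalized count + 1) within CNO was larger than within saline for 38 of the 44 tested genes (86.4%), with medians of 2.28 in CNO and 0.70 in saline. Over all tested genes the CNO SD was the larger for 80.6%, with medians of 2.15 in CNO and 0.81 in saline, so the proteasome genes lay close to the whole table. The same held over genes detected in all 6 libraries, 83.3% of 30 proteasome genes and 82.5% of 7395 genes. The 6 genes with the larger SD in saline were Psma2, Psmc6, Psmd13, Psme1, Psme3 and Psmg4, of which Psmg4 was at 0 in all 3 CNO libraries. The CNO range enclosed the whole saline range, with a CNO library above and another below, for 25 of the 44 genes (56.8%), beside 39.1% of all tested genes. This share was not tested, since the genes are no replicates.

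**Figure D4:**
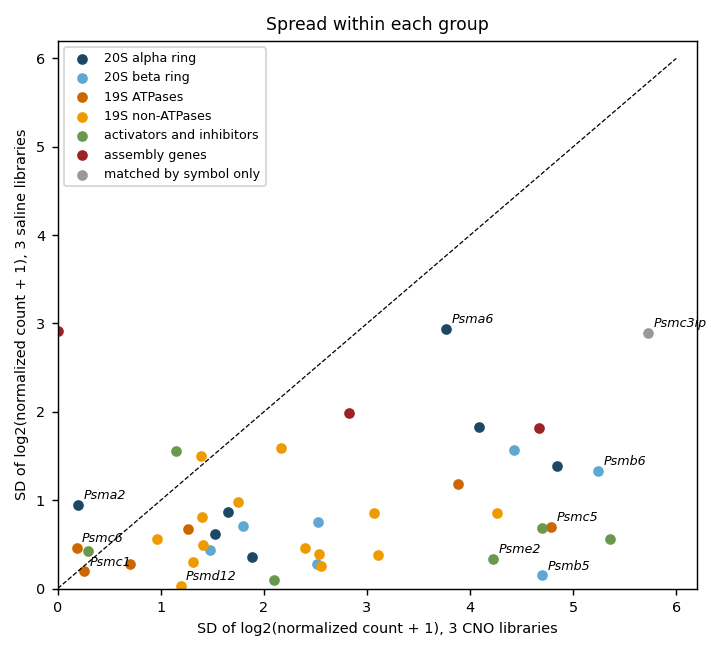
SD of log2(normalized count + 1) among the 3 CNO libraries (x axis) and among the 3 saline libraries (y axis), 1 point per tested gene, coloured by role, with the line of equal SD. All but 6 of the 44 points lie below the line, and Psmb5 has an SD of 4.70 in CNO and 0.15 in saline.

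Gaps were concentrated in CNO 1 and CNO 3. Of the 44 tested genes, 13 (29.5%), 1 (2.27%) and 4 (9.09%) had 0 reads in CNO 1, 2 and 3, against 1 (2.27%), 1 (2.27%) and 0 in saline 3, 4 and 5. Over all tested genes these shares were 35.2%, 8.93% and 20.1% in CNO and 3.64%, 3.39% and 3.88% in saline, and the shares of the proteasome genes lay below these in each CNO library. A single read is worth 4.23 normalized counts in CNO 1 and 0.503 to 0.970 elsewhere. For the 13 tested genes at 0 in CNO 1, the saline mean would amount to 5.10 (Psmg4) to 135 (Psmc5) reads at that depth. CNO 3, at a depth like that of saline, had gaps as well. The part of depth in these gaps was not tested. More than 4-fold below the lowest saline library lay 18, 1 and 8 of the 44 genes in CNO 1, 2 and 3 (40.9%, 2.27% and 18.2%), beside 38.5%, 12.1% and 27.8% of all tested genes. More than 4-fold above the highest saline library lay 4, 1 and 3 genes (9.09%, 2.27% and 6.82%), beside 6.42%, 3.60% and 6.21% of all tested genes. The genes above were Psmb5, Psmc3, Psmc3ip and Psmd7 in CNO 1, Psmd9 in CNO 2, and Psmb1, Psmd7 and Psmd8 in CNO 3. CNO 1 and CNO 3 shared Psmd7 among the high genes, and Psmc4, Psmc5, Psmd5, Psmd9 and Psmg3 among the low ones. In saline, each library set against the other 2 had 1 to 4 genes below and 1 gene above by the same factor. The shares below were 9.09%, 2.27% and 2.27% in saline 3, 4 and 5, beside 6.11%, 5.73% and 7.06% of all tested genes. The share above was 2.27% in each, beside 3.99%, 4.90% and 4.64% of all tested genes.

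The order of the proteasome genes by level was alike between saline libraries and less so between CNO libraries. Spearman's rho over the 44 genes was 0.497 to 0.684 within saline, 0.025 to 0.412 within CNO, and 0.227 to 0.700 between a CNO and a saline library. Over all tested genes the same order held, with 0.798 to 0.819 within saline, 0.558 to 0.667 within CNO and 0.635 to 0.755 between groups. Over the proteasome genes, CNO 2 was nearest to saline (0.517 to 0.700) and CNO 1 farthest (0.227 to 0.265). The points share library and depth, and these values describe the libraries. Per kilobase of annotated exon, which allows levels of different genes to be compared, the highest in saline were Psmb2 (453 ± 82.1 normalized counts per kb, SD, n = 3), Psmc5 (408 ± 215), Psme2b (341 ± 142) and Psmb5 (298 ± 30.7). In CNO they were Psmb5 (955 ± 1362 per kb), Psmd7 (681 ± 581), Psme2b (535 ± 628) and Psmc3ip (521 ± 881). The SD exceeds or nears the mean for each of these in CNO, so neighbours in that order do not differ beyond their spread.

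Other genes of the ubiquitin-proteasome pathway did not pass either. Of 34 listed genes in the table, all were tested, 0 passed in limma in either direction, and 20 had fold changes above 0 and 14 below, with a median of 0.11 beside -0.89 over all tested genes. Over the 7395 genes detected in all 6 libraries the median was -0.09, so the distance depends on the genes set beside the list. As a share of reads the same 34 genes summed to 0.371, 0.304 and 0.385% in CNO, against 0.575, 0.591 and 0.748% in saline, with all CNO libraries below the lowest saline library. As sums of normalized counts the groups overlapped, with 61276, 43221 and 63847 in CNO and 56645, 56784 and 71701 in saline. The separation of the sums therefore depends on the scale. The share of reads and the median of these genes run in opposite directions. The groups did not overlap for 5 of them, higher in CNO for Stub1, Usp14 and Txnl1, where 4.57% of all tested genes were, and lower for Psmb9 and Ngly1, where 12.5% were. Ngly1, which removes glycans from the Nfe2l1 protein, had 0, 132 and 72.8 in CNO, against 188, 205 and 331 in saline. Nfe2l1, the inducer of proteasome genes, had 1627, 2123 and 3012 in CNO, against 1927, 1751 and 630.1 in saline (log2 fold change 0.76 ± 0.60 SE, limma adjusted p = 0.664). Ddi2, the protease that activates the Nfe2l1 protein, had 0, 40.0 and 0 in CNO, against 116, 146 and 36.7 in saline (log2 fold change -4.65 ± 2.18 SE, limma adjusted p = 0.534), at 0 in CNO 1 and CNO 3. The 2 remaining 19S subunits, which the symbol rule does not reach, were Adrm1, a ubiquitin receptor, with 275, 114 and 73.7 in CNO, against 259.6, 313 and 348 in saline (log2 fold change -1.2 ± 1.10 SE, limma adjusted p = 0.689), and Shfm1 (also Sem1), with 0, 397 and 160.1 in CNO, against 76.0, 25.6 and 162 in saline (log2 fold change -0.79 ± 2.34 SE, limma adjusted p = 0.905). Usp14, a deubiquitinase of the proteasome, had 794, 629.6 and 1708 in CNO, against 591, 415 and 238 in saline (log2 fold change 1.29 ± 0.77 SE, limma adjusted p = 0.596), with all CNO libraries above the highest saline library. Txnl1, a thioredoxin-like protein bound to the proteasome, had 997, 779 and 668 in CNO, against 194, 304 and 606 in saline (log2 fold change 1.28 ± 0.79 SE, limma adjusted p = 0.603), again without overlap. Stub1, a ubiquitin ligase that works with chaperones, had 562, 2.22 and 764 in CNO, against 0, 0.800 and 0 in saline, where saline held 1 read in all and CNO 2 held 3. Its fitted change of 6.52 ± 2.37 (SE, 95% interval 1.32 to 11.72, limma adjusted p = 0.488) depends on the pseudocount, and DESeq2 called it (adjusted p = 2.72e-05), in a range of adjusted p from 2.72e-05 to 0.910 over the alternatives. Stub1 overlaps the protein-coding gene Jmjd8 on the opposite strand, and where counting ignored strand the reads of the 2 genes cannot be told apart.

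The interferon-induced catalytic subunits, which can replace the constitutive ones, were set beside them. Psmb8, in place of Psmb5, had 127, 264 and 35.9 in CNO, against 78.8, 47.2 and 260.2 in saline (log2 fold change 0.10 ± 1.49 SE, limma adjusted p = 0.985). Psmb10, in place of Psmb7, had 1382, 316 and 212 in CNO, against 355, 175 and 296 in saline (log2 fold change 0.78 ± 0.99 SE, limma adjusted p = 0.767). Psmb9, in place of Psmb6, had 0 reads in every CNO library, against 33.4, 76.8 and 54.4 in saline, and did not pass (limma adjusted p = 0.488, 0.0657 to 0.814 over the alternatives).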

How the data were processed

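RNA from sorted cortical cells was sequenced in 3 CNO and 3 saline libraries, each made from 10 ng of total RNA per the labels' protocols. The unit of the deposited table is a signal: the authors scaled each gene's counts by a size factor of its library. In it 100% of values were whole multiples of a step per library within 1e-06 reads, from which whole reads were recovered. STAR 2.5.0a, DESeq2 1.20.0, Trimmomatic 0.4, MultiQC 0.9 and FastQC 0.10.1 are listed, with build mm10, per the submitters' processing notes. How reads were counted, and whether by strand, is not stated in the sources at hand, and overlapping genes (12 of the 47 overlap another protein-coding gene) and near-identical copies may share reads.

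Proteasome genes were chosen by symbol, and they, their role classes and the pathway and marker lists were chosen with earlier results of these data known. Limma 3.58.1 in R 4.3.3 compared CNO with saline on log2(normalized count + 1) over 13028 genes with a mean of at least 10 (eBayes with trend, 2-sided, Benjamini-Hochberg at 0.05 over all of them). Fold changes are differences of mean log2 values, understate changes of low genes, and can differ in sign from the ratio of means. The design named edgeR for raw counts. Since the values are normalized, limma remained the test, and edgeR 4.0.16, DESeq2 1.42.0 and limma-voom on recovered reads were alternatives, beside other pseudocounts, filters, scalings, array weights and each library left out. The fits were tested on simulated data. Intervals and the floor of 3 reads for a count of 0 cover counting error only. Values in every library were given for the catalytic subunits, genes at 0 in a whole group, those with the smallest p per direction and per class, and the highest per class by mean; the other genes were added so that all 47 appear, and Ngly1 was named after its values were seen. A pathway gene that this choice covers is not reported here. Coordinates and exon lengths are from GENCODE M21 on GRCm38, and promoters from RefSeq on GRCm38.p6. A single table held all libraries, with 0 columns left without one. Figures were drawn with matplotlib 3.10.9.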

Additional observations from a re-analysis of the deposited data

How the results depend on the processing

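Under the 20 alternatives, 0 proteasome genes with an adjusted p were called, and the smallest was 0.0906 (Psmd5, DESeq2). DESeq2 gave none for Psmc3ip, Psmc5, Psmd9 and Psmg4, so their call there is not known, and stricter filters or a left-out library took some genes out of the test. The median log2 fold change of the proteasome genes stayed within the spread between libraries, from -1.15 with scaling to total reads to 0.27 in DESeq2, and from -0.85 without CNO replicate 3 to -0.09 without CNO replicate 1. The median of all tested genes was -0.08 with quantile scaling and -1.49 with total reads, against -0.89 as reported. The difference in share of reads was -0.0167 percentage points, and -0.0266 to -0.00946 with a library left out. It was -0.0165 without Psme4 and -0.0224 without Psmc3ip. Scaling to total reads, these omissions and the sum of normalized counts were chosen after seeing the data. Of 637 pairs of a named gene (33 genes) and an alternative, 580 kept the sign, 56 had the other sign and 1, Stub1 in DESeq2, passed. Apart from Stub1 no pair was called, but 4 DESeq2 pairs had no adjusted p and their call is not known. Of these, Psmd9 had the other sign, and Psmc3ip, Psmc5 and Psmg4 kept the sign. The cause of the turns of sign was not tested. DESeq2 with the same filter gave the other sign for Psmb5 (1.68), Psmb6 (0.37), Psmb7 (0.52), Psmd9 (1.22), Psme2 (0.29), Psme4 (0.72), Psmf1 (0.32), Psmg2 (1.14) and Shfm1 (1.09). edgeR did so with the same filter for Psmb5 (1.45), Psmb6 (0.30), Psmb7 (0.45), Psmd9 (1.16), Psme2 (0.22), Psme4 (0.65), Psmf1 (0.26), Psmg2 (1.09) and Shfm1 (1.02). Without a filter, edgeR did so for Psmb5 (1.51), Psmb6 (0.39), Psmb7 (0.53), Psmd9 (1.25), Psme2 (0.32), Psme4 (0.74), Psmf1 (0.35), Psmg2 (1.19) and Shfm1 (1.10). Array weights turned Psmb7 (0.07), Psmd7 (-0.01) and Shfm1 (0.72). Limma-voom turned Psme4 (0.05) and Psmb8 (-0.07). A pseudocount of 8 turned Shfm1 (0.06). Quantile scaling turned Psmb7 (0.17), Psmd9 (1.30), Psmg2 (0.36) and Shfm1 (1.57). Scaling to total reads turned Psma4 (-0.13), Pomp (-0.31) and Psmb8 (-0.58). With each library left out in turn, the log2 fold change took both signs for 12 genes, running from -0.11 to 1.39 for Psma4, -2.94 to 1.65 for Psmb5, -3.46 to 1.26 for Psmb6, -1.62 to 0.89 for Psmb7, -0.07 to 2.70 for Psmd7, -3.10 to 0.80 for Psme2, -1.42 to 0.62 for Psme4, -4.14 to 0.43 for Psmf1, -3.39 to 1.26 for Psmg2, -0.03 to 1.32 for Psmb10, -0.54 to 0.88 for Psmb8 and -2.45 to 1.87 for Shfm1. DESeq2 called 242 genes of the whole table and limma 2. No paired analysis was possible because the groups share fewer than 2 replicate numbers (only 3). CNO 1 limits what low genes can show, since 3 reads there equal 12.7 normalized counts.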

Other observations

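The median over the 44 tested proteasome genes of the log2 value in a library minus the saline mean was -1.52, 0.25 and -0.48 in CNO 1, 2 and 3, and -0.07, 0.04 and 0.31 in saline 3, 4 and 5. CNO 1 was thus low and CNO 2 close to saline by this measure. The highest of the 6 libraries was a CNO library for 30 of the 47 genes (12 in CNO 1, 8 in CNO 2 and 10 in CNO 3), and a saline library for 17 (1, 6 and 10 in saline 3, 4 and 5). The same count over all tested genes was not made, so this one is no trait of the proteasome genes. Over all tested genes the SD of log2 values was larger in CNO for 80.6%. These values overlap in their genes with those of the comparison and were not tested.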
